A study of Mus musculus with 24 samples.

Results

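The cytosolic ribosomal protein genes encode the proteins that, together with ribosomal RNA, build the small and the large subunit of the ribosome. Members were chosen by symbol (Rpl or Rps with a number and at most one further letter a, l, x or y, Rplp0, Rplp1, Rplp2 and Rpsa) and by level, since a gene had to reach 5 reads in 6 libraries of controls or in 6 of mutants. Of 53465 genes listed, 83 carried such a symbol and 79 passed, among 15493 genes that passed the same filter and were tested. They comprised 32 genes of the small and 47 of the large subunit. The annotation lists 77 of them as protein-coding, while Rps4l (chr6:148354656-148355598, GRCm38) and Rpl6l (chr10:111125851-111126721), which fit the symbol rule, are listed as pseudogenes.

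RNA was sequenced from CD31-positive cells sorted from the brains of single C57BL/6J mice kept in alternating 12-h light and dark periods, with lights on at zeitgeber time (ZT) 0. Controls were Bmal1fl/fl mice, which carry floxed alleles of the clock gene Bmal1 (listed as Arntl), and mutants were Bmal1fl/fl; Tie2cre mice, in which Cre is driven by the Tie2 promoter, active in endothelium and also known from blood cells. Of each genotype 2 mice were taken every 4 h from ZT2 to ZT22, which gave 12 libraries per genotype and 24 in all. The study counts 2 independent experiments, which the labels do not assign to libraries. Ages are not given, and mice of both sexes were used without the sex of each being labelled. Myelin was removed with beads before the sort, and cells labelled with anti-CD90 were separated off magnetically. The sort used antibodies to CD31 and CD90. Either of a pair of sorters was used, which the labels do not tell apart.

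The libraries held between 6136404 and 6648311 reads after the normalization of the authors; depth before that step was not analysed here. All 8 endothelial markers examined were present, and their summed level lay between 10268 and 17132 CPM (counts scaled to the same library total). The 8 libraries of ZT6 and ZT18 stood apart in both genotypes. Their titles carry consecutive numbers that run on into those of other time points, and the labels name no batch. Summed microglial markers (8 of 8 detected, none at 0 over all libraries) lay between 181 and 303 CPM there, against 1571 to 4262 in the other 16 libraries, and mitochondrially encoded genes took 2.68% to 3.90% of reads against 5.78% to 17.4%. The i5 index of the libraries was the same in both genotypes at ZT6, ZT14, ZT18 and ZT22 and differed at ZT2 and ZT10. Arntl had 1 to 468 reads in controls and 81 to 354 in mutants, and whole-gene reads do not resolve the floxed exon.

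Ribosomal protein messages are among the most abundant in most cells. Many begin with a C followed by a run of pyrimidines, the terminal oligopyrimidine (TOP) motif, through which their translation is adjusted to nutrient and growth signals by mTOR. Because that control acts on translation, the amount of these messages often changes little while the amount of protein made from them changes. Some of their introns hold small nucleolar RNAs, and several have many processed pseudogene copies in the genome.

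Start sites were available for 57 of the 79 genes, taken from RefSeq (GRCm38.p6). A listed start with C and 4 following pyrimidines was found in 13 of the 57 (22.8%), against 3.01% of 27025 genes with an entry, and the longest run of C or T within 10 bases before and 20 bases from the start on had a median of 7 bases against 5. The windows of members on which the comparisons turn are shown 5′ to 3′, each with the 10 bases before the listed start, and the longest run of C or T is in capitals. Rpl39, Rpl13a and Rps3 are shown because they were lower at ZT6 and ZT18, Rps24 and Rpl19 (the first of 2 listed starts of each) because they had the lowest and the third lowest p-value between genotypes, Rps6 for its time course in mutants, and Rps27 with its near-copy Rps27l for their difference in level. No entry was found for Rplp1, Rps29, Rpl23a and Rps4l.
Rpl39, chrX:37085203-37085232, minus strand: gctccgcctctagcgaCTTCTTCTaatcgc
Rpl13a, chr7:45128726-45128755, minus strand: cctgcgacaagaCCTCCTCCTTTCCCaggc
Rps3, chr7:99483690-99483719, minus strand: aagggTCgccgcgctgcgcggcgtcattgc
Rps24, chr14:24490668-24490697, plus strand: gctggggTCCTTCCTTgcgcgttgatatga
Rpl19, chr11:98026700-98026729, plus strand: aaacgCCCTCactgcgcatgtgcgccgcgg
Rps6, chr4:86857348-86857377, minus strand: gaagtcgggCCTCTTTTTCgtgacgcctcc
Rps27, chr3:90213629-90213658, minus strand: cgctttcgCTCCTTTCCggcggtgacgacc
Rps27l, chr9:66946076-66946105, plus strand (the first of 2 listed starts): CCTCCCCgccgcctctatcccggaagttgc

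Of these, Rps6 and Rps27 meet the rule of C and 4 pyrimidines at the listed start, and Rps3 has no run of C or T longer than 2 bases in the window. The motif CACGTG, the E-box to which BMAL1 and CLOCK bind (its own reverse complement, so that both strands were read at once), stood within 250 bases before and 50 bases after a listed start in 6 of the 57 genes (10.5%), namely Rpl13a, Rpl14, Rpl19, Rpl23, Rpl34 and Rps19. The share among all genes with an entry was 8.09%.

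The first question was how strongly each gene was expressed in these cells. All 79 genes had 5 or more reads in all 24 libraries. Levels are compared between genes per kilobase of mature transcript (reads per kb), with the shortest principal transcript of the annotation as the length, so that a gene with a long alternative model, such as Rps20, comes out low. The median gene had 1056 reads per kb, and the range was 24.0 to 4306. Rpl26, a large subunit protein near the exit of the peptide tunnel, was highest with 4586 ± 709 reads per kb in controls and 4025 ± 472 in mutants (mean ± SD, n = 12 each, as for all levels of this kind).

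Also among the highest were both acidic stalk proteins. Rplp1, a protein of the stalk that recruits translation factors, had 3439 ± 849 reads per kb in controls and 3005 ± 660 in mutants. Rplp2 had 3261 ± 664 and 3087 ± 366, so that the stalk proteins did not differ beyond their spread. The lowest genes were Rpl6l with 27.5 ± 19.4 reads per kb in controls, Rps27l with 116 ± 45.0 and Rpl24 with 132 ± 50.3. The low level of Rpl24, a regular large subunit protein, rests on 38 to 153 reads per library. Rpl24 overlaps Gm28037 in the annotation, so reads there may be shared and its level is uncertain.

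Several ribosomal proteins have a close copy that is used in particular tissues. Rps27 had 1471 reads per kb over all 24 libraries and its copy Rps27l, known as a p53 target, 103, with 10 to 98 reads of Rps27l per library. Rpl3l and Rpl10l, the copies of Rpl3 and Rpl10 known from muscle and testis, had 0 reads in all libraries, which allows up to 0.489 CPM in the smallest library by a limit of 3 reads. Rpl39l, the copy of Rpl39 known from testis, had 16 reads in all, 9 at most in a library. Rpl32l, which is listed as a processed pseudogene, had 78 in all and 17 at most. Both failed the level rule. The lowest member, Rpl6l, had a mean of 20.9 reads and reached 5 in all 24 libraries, so that no member stood at the limit of 6 libraries.

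**Figure D1:**
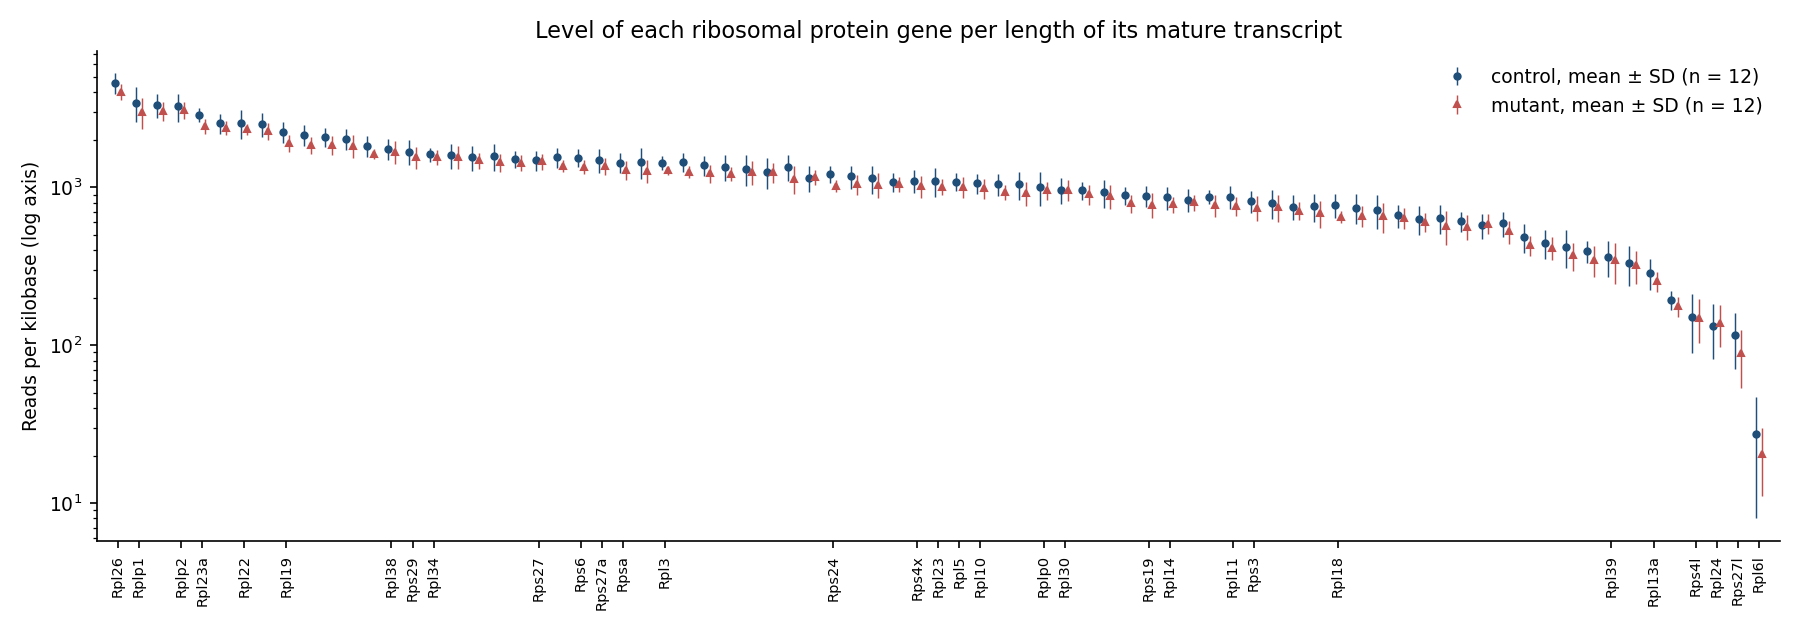
Reads per kilobase of mature transcript on a log axis for each of the 79 ribosomal protein genes, ordered from high to low, as mean ± SD over 12 control (circles) and 12 mutant (triangles) mice. The level falls from 4306 reads per kb for Rpl26 to 24.0 for Rpl6l, with names on the axis for genes described in the text, and the symbols of the 2 genotypes lie close together for each gene.

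Members with a fixed role outside the core structure of the ribosome were followed individually, as reads per library. The stalk base Rplp0, often used as a reference gene, had 1362 ± 327 reads in controls and 1300 ± 174 in mutants. Rpsa, which also serves as a laminin receptor, had 2291 ± 335 and 2064 ± 275. Rps6, the substrate of S6 kinase, had 1355 ± 175 and 1184 ± 126. In all of these the ranges of the genotypes overlapped.

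The pair Rpl5 and Rpl11, which join the ribosome together with a small ribosomal RNA and bind Mdm2 when assembly fails, had 2222 ± 288 and 728 ± 123 reads in controls and 2055 ± 313 and 634 ± 86.7 in mutants. Rps27a, made as a fusion with ubiquitin, had 946 ± 164 and 870 ± 111. Rpl3, at the peptidyl transferase centre, had 1933 ± 196 in controls and 1733 ± 119 in mutants, and Rpl10, which joins the large subunit last, had 848 ± 128 and 786 ± 111. Rps4x, encoded on the X chromosome, had 1074 ± 176 and 999 ± 159. Rpl22 had 1209 ± 253 and 1110 ± 90.0, and Rpl38, known for its part in the translation of Hox messages, had 604 ± 92.4 and 578 ± 96.4.

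Ribosomal protein genes varied little between mice. The coefficient of variation over 12 libraries had a median of 17.2% in controls (9.94% to 70.8%) and 14.1% in mutants (6.88% to 45.7%), against medians of 38.1% and 35.5% over all genes tested. It was smaller in mutants than in controls for 62 of 79 genes, and for 59.1% of all genes tested. Counting error is smaller in genes with many reads, and the median of these genes was 725 reads per library; its part in this difference was not tested. Rpl23a varied least in controls, from 1270 to 1836 reads.

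Reads on pseudogenes can come from the parent gene or be missing from it, since the copies are nearly identical. The 286 pseudogenes named after these 79 genes held between 1.84% and 2.53% of the reads on genes and pseudogenes together in each library. The share exceeded 10% for 6 genes, with the highest in Rpl10a (16.0%), Rpl17 (14.4%) and Rps13 (13.5%). Levels of these genes are uncertain, and the extent was not tested, since the share covers only reads that were placed on pseudogenes. Only pseudogenes whose symbol is that of the parent gene with -ps were counted, so any under other symbols are left out.

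To see how much of the library these genes make up, their reads were summed. The 79 genes took 1.18% of reads in the median control (0.962% to 1.38%, n = 12) and 1.06% in the median mutant (0.901% to 1.20%). The 95% Wilson interval of a library's share was at most 0.0183 percentage points wide and covers counting error only. Small subunit genes had 0.539 to 0.611 reads for each read on large subunit genes in controls and 0.533 to 0.625 in mutants. The ranges of the genotypes overlapped widely in both measures. In bulk samples a change in the cells sorted and a change in RNA per cell cannot be told apart.

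The control mice had shares of 1.25% and 1.07% (ZT2), 1.03% and 1.22% (ZT6), 1.37% and 1.38% (ZT10), 0.962% and 0.973% (ZT14), 1.30% and 1.14% (ZT18), and 1.13% and 1.25% (ZT22). The mutant mice had 1.00% and 1.01% (ZT2), 0.901% and 1.04% (ZT6), 1.08% and 1.20% (ZT10), 1.05% and 1.09% (ZT14), 1.05% and 1.16% (ZT18), and 1.10% and 1.16% (ZT22). The highest control values were at ZT10 and the lowest at ZT14, where the mice of each pair nearly coincided. Mutants lay below both controls at ZT2 and ZT10, above both at ZT14, and overlapped with them at the other time points. Mitochondrially encoded genes took 17.4% and 15.3% of reads in the controls of ZT14, and with these genes left out the control shares there were 1.16% and 1.15% and overlapped with those of mutants (1.14% and 1.22%). At ZT6 the genotypes separated once these genes were left out, with 1.07% and 1.27% in controls and 0.938% and 1.07% in mutants, the higher of which lay just below the lower control.

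**Figure D2:**
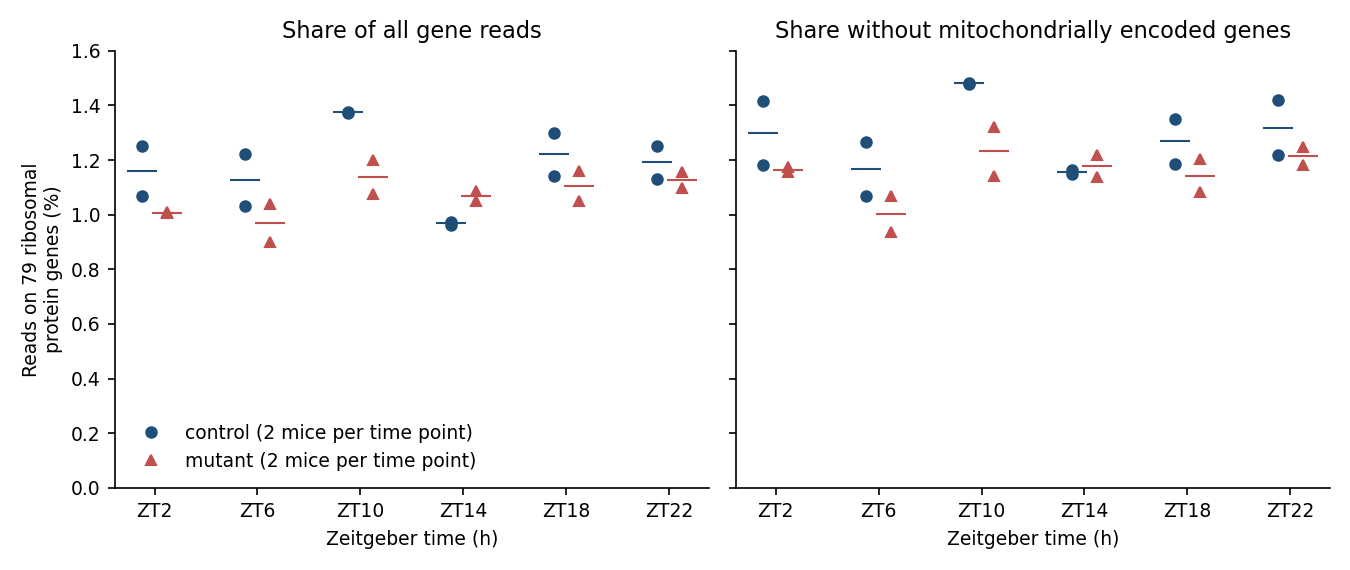
Percent of reads on the 79 ribosomal protein genes in each library by time point, of all gene reads (left) and without mitochondrially encoded genes (right), with controls as circles, mutants as triangles and the mean of the 2 mice as a bar. Mutants lie below both controls at ZT2 and ZT10 and above both at ZT14 in the left panel, while in the right panel the groups of ZT14 overlap and mutants also lie below both controls at ZT6.

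The contrast of ZT10 with ZT14 in controls was chosen after these values were seen and is a description only. On log2 values scaled by the trimmed mean of M values (TMM, which sets aside extreme genes when libraries are made comparable), both ZT10 controls lay above both ZT14 controls in 53 of 79 genes, against 19.7% of all genes tested, and below in 1 gene (19.3%). The median difference in log2 level was 0.35 in these genes and 0.02 over all genes. In mutants 14 genes lay above (20.6% of all genes) and 7 below (19.2%), and the median difference was 0.07. Between these control groups summed markers of oligodendrocytes were 909 to 1032 CPM at ZT10 and 1694 to 2714 at ZT14, and those of microglia 3037 to 3436 and 1781 to 2188. Those of pericytes and smooth muscle were 2635 to 2745 and 1704 to 1850, those of neurons 49.1 to 54.7 and 109 to 122, and all listed markers of these types were detected. The control libraries of ZT10 and ZT14 also differ in the i5 index, so that time and index cannot be told apart there, while those of mutants share it. The part of other cell types in this contrast was not tested.

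The main comparison asked whether the loss of Bmal1 in Tie2-expressing cells changed the level of ribosomal protein messages. No gene passed an adjusted p of 0.05 in edgeR's quasi-likelihood test with time point as a factor (0 of 79), against 0.155% of all genes tested that were called higher in mutants and 0.116% called lower. The log2 fold changes (mutant over control) were small and mostly of one sign. They lay between -0.40 and 0.04 with a median of -0.13, against a median of 0.00 over all genes, and 73 of 79 were below 0 (49.4% of all genes). At an unadjusted p under 0.05 there were 20 genes, all lower in mutants, against 3.18% of all genes on that side and 3.78% on the other. For 28 of the 79 genes the fold change was smaller than its standard error.

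The 3 smallest p-values belonged to Rps24, Rpl23a and Rpl19. Rps24, a small subunit protein mutated in Diamond-Blackfan anaemia, had 1527 to 2307 reads in controls (median 1924) and 1451 to 1851 in mutants (median 1651). Its log2 fold change was -0.24 ± 0.07 (SE), with an adjusted p of 0.260 by edgeR with Benjamini-Hochberg adjustment, and DESeq2 called it lower (-0.24, adjusted p = 0.0470). The ranges overlapped, and 3 mutants lay below the lowest control.

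Rpl23a (chr11:78180932-78183584), which binds signal recognition particle at the tunnel exit, had 1270 to 1836 reads in controls (median 1672) and 1074 to 1603 in mutants (median 1360), with a log2 fold change of -0.23 ± 0.07 and an adjusted p of 0.282. Rpl19 had 1311 to 2048 reads in controls (median 1745) and 1192 to 1832 in mutants (median 1388), with -0.24 ± 0.08 and an adjusted p of 0.328. Neither passed the threshold, and the ranges of the genotypes overlapped in both genes. Rpl23a overlaps Tlcd1 and Rpl19 overlaps Gm11629 in the annotation, so reads there may be shared. The largest fold changes were those of Rps27l (-0.40 ± 0.29) and Rpl6l (-0.39 ± 0.44), which have few reads and large errors.

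**Figure D3:**
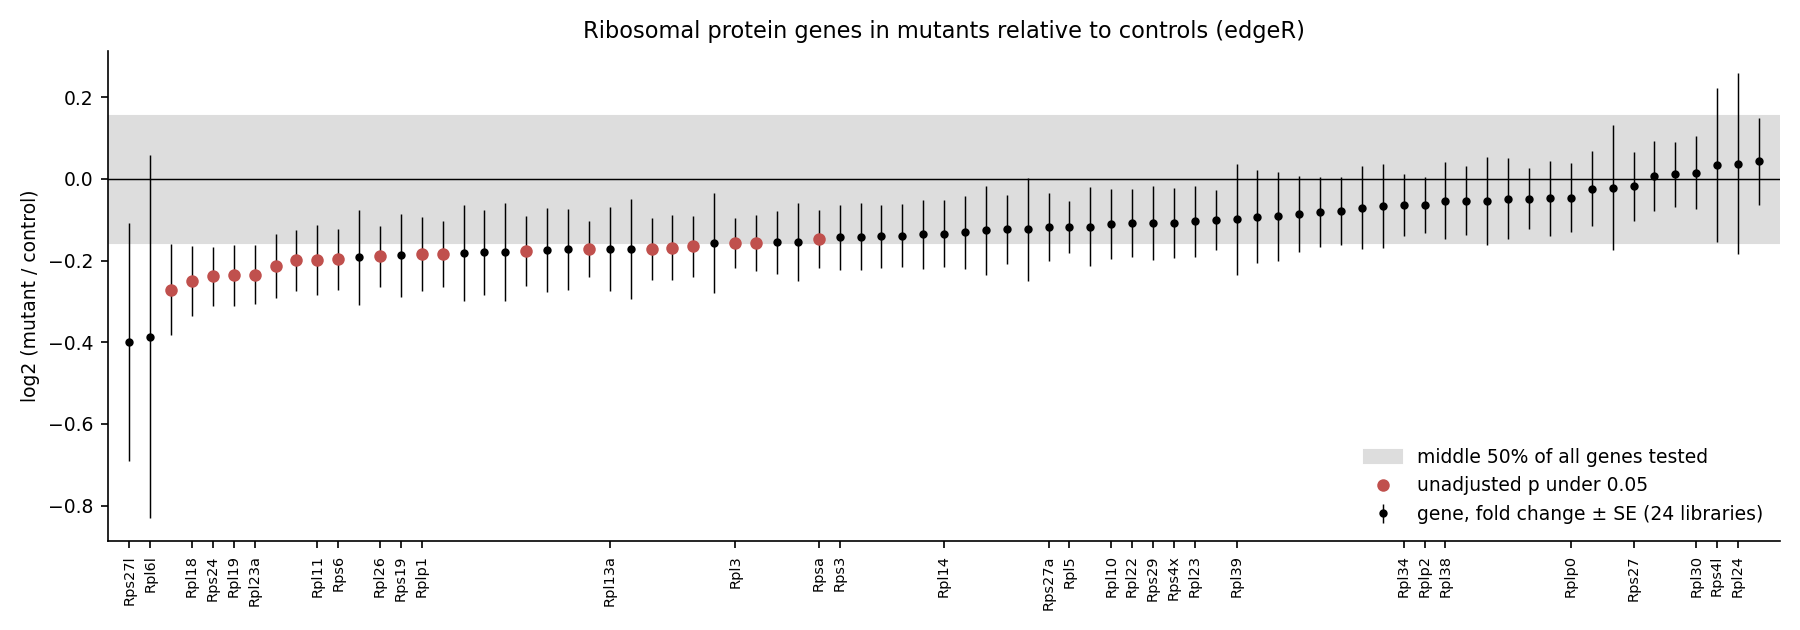
log2 fold change of mutants over controls for each of the 79 genes (points, with SE from the edgeR fit over 24 libraries), ordered by size, with the 20 genes at an unadjusted p under 0.05 in red and the middle 50% of all genes tested in grey. Names on the axis are of genes described in the text; in 73 of 79 genes the point lies below 0, and no gene passed the adjusted threshold.

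The median log2 fold change was -0.13 over 32 small subunit genes (30 below 0, 4 with an unadjusted p under 0.05) and -0.14 over 47 large subunit genes (43 below 0, 16 with such a p), and the difference between the subunits was not tested. It was -0.15 over the 29 genes that hold small nucleolar RNA genes and -0.12 over the other 50. The 13 genes whose listed start is a C and 4 pyrimidines had a median of -0.09 and the other 44 with an entry -0.13. The 6 genes with an E-box in the window had fold changes of -0.17 in Rpl13a, -0.13 in Rpl14, -0.24 in Rpl19, -0.10 in Rpl23, -0.06 in Rpl34 and -0.19 in Rps19.

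By time point, the median log2 difference of the 79 genes was -0.16 at ZT2, -0.19 at ZT6, -0.29 at ZT10, 0.01 at ZT14, -0.09 at ZT18 and -0.06 at ZT22, while that of all genes tested lay between -0.04 and 0.04. Both mutants lay below both controls in 43 of 79 genes at ZT10 (15.4% of all genes), in 29 at ZT2 (17.4%), in 23 at ZT6 (18.4%), in 20 at ZT22 (15.5%), in 16 at ZT18 (16.9%) and in 15 at ZT14 (19.9%). Both mutants lay above both controls in 4 genes at ZT2 (19.4% of all genes), in 2 at ZT6 (16.0%), in 0 at ZT10 (17.0%), in 19 at ZT14 (21.1%), in 9 at ZT18 (18.1%) and in 12 at ZT22 (16.0%). The largest differences were at ZT10. With the i5 index as a factor, the median over all time points was -0.10, 60 of 79 genes were below 0 and 9 had an unadjusted p under 0.05 on the lower side (3.50% of all genes). With only the 4 time points at which the genotypes share the index, the median was -0.10 and the counts were 60 and 8 (3.61%). Summed markers ranged from 181 to 3576 CPM in controls and 198 to 4262 in mutants for microglia (8 of 8 markers detected), and 10268 to 16854 and 11760 to 17132 for endothelium. These ranges pool ZT6 and ZT18 with the other time points, so their overlap does not show equal composition. Medians in controls and mutants were 1985 and 2523 CPM for microglia, 2094 and 1724 for astrocytes, 1163 and 1044 for oligodendrocytes, and 13221 and 13414 for endothelium. The part of these cell types in the genotype difference was not tested.

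Immediate-early and heat shock genes, which are known to be induced while cells are isolated, stood on the other side of the comparison. Of 14 such genes all had log2 fold changes above 0, with a median of 0.29, 10 had an unadjusted p under 0.05 (3.78% of all genes on that side) and 0 were called. Among them Jun had 12694 ± 3481 reads in controls and 15748 ± 4064 in mutants. The 14 genes also stood above 0 at ZT6 and ZT18 against the other time points (median 0.57, 11 called higher, against 7.21% of all genes). Their part in the values of the ribosomal protein genes was not tested.

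Other genes of the translation machinery were examined with the same test. For each list below, the shares over all genes were 49.4% below 0 and 3.18% lower at an unadjusted p under 0.05. Of 8 ribosomal protein genes outside the symbol rule, 7 were below 0, with a median of -0.13, and 0 were called; the largest was Rpl36al (-0.54 ± 0.25, adjusted p = 0.688). Of 19 translation factors known or held to have TOP messages, 17 were below 0 with a median of -0.09, 4 had an unadjusted p under 0.05 on the lower side and 0 were called. The smallest p was that of Eef1b2, an exchange factor of elongation factor 1A, with 947 ± 132 reads in controls and 758 ± 91.5 in mutants (-0.32 ± 0.07, adjusted p = 0.0551).

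Genes that build ribosomes were examined next. Of 32 assembly factors and RNA polymerase I genes 21 were below 0, with a median of -0.04, and none had an unadjusted p under 0.05. The 17 genes that control TOP messages, Mtor and Larp1 among them, had a median of 0.01 with 7 below 0 and likewise no p under 0.05. Of 77 mitochondrial ribosomal protein genes 52 were below 0, with a median of -0.06, and 1 had an unadjusted p under 0.05. In none of these 3 lists was a gene called, and all lists were chosen with earlier results of these data known.

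The next question was whether ribosomal protein genes differed between the ZT6 and ZT18 libraries and the others, a contrast in which time of day and anything else that set these 8 libraries apart cannot be told apart. Over both genotypes 5 genes were called lower at ZT6 and ZT18 and 0 higher, against 11.4% of all genes called lower and 7.21% called higher. The median log2 difference was -0.08 against 0.01 over all genes, and 55 of 79 genes were below 0 (49.2% of all genes). At an unadjusted p under 0.05 there were 12 lower and 2 higher, against 16.0% and 12.4% of all genes. The count of lower genes depended on the scaling, with 24 of 79 when totals without mitochondrial genes were used (18.3% of all genes) and 5 with deposited totals only (14.8%), so that it does not place these genes below or above all genes. The medians moved with the setting too. They were -0.15 in the 79 genes and -0.05 over all genes with totals without mitochondrial genes. With deposited totals only they were -0.04 and 0.05, and with the i5 index as a factor -0.18 and -0.01. With no filter they were -0.074 and -0.063, so that the 79 genes hardly stood apart from all genes there.

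Rplp1 (chr9:61913284-61914542) had the smallest p, with 1126, 1326, 1557 and 1369 reads in controls of ZT6 and ZT18 and 934, 1304, 1447 and 1303 in mutants. In the other 16 libraries it had 1192 to 2348 reads (median 1657). All 8 libraries thus lay below the median of the others, and its log2 difference was -0.43 ± 0.10 (adjusted p = 0.00139). Rplp1 joins Rplp2 and Rplp0 in the stalk, and those had -0.18 ± 0.07 (adjusted p = 0.0961, and 0.0241 to 0.0375 under the 3 settings that called it) and -0.19 ± 0.09 (adjusted p = 0.172).

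Rpl39, a short protein lining the exit tunnel, had 231, 163, 126 and 197 reads in controls of ZT6 and ZT18 and 141, 145, 116 and 201 in mutants, against 152 to 318 elsewhere (median 248). Its log2 difference was -0.55 ± 0.15 (adjusted p = 0.00688), and all 8 libraries lay below the median of the others. Rpl13a, known for a part in silencing inflammatory messages, had 191, 229, 311 and 214 reads in these controls and 225, 204, 226 and 262 in these mutants, against 242 to 395 elsewhere (median 305). Its log2 difference was -0.40 ± 0.11 (adjusted p = 0.00894), and 1 of the 8 libraries lay above the median of the others. The gene holds 4 small nucleolar RNA genes and overlaps another annotated gene, so its reads cannot be assigned with certainty.

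Rps3, which sits at the messenger entry and also acts in DNA repair, had a median of 1320 reads (966 to 1602) at ZT6 and ZT18 and 1566 (1274 to 2068) elsewhere, with a log2 difference of -0.26 ± 0.09 (adjusted p = 0.0282). Rps29 (chr12:69157722-69159186) had a median of 546 (482 to 636) and 672 (443 to 861), with -0.29 ± 0.10 (adjusted p = 0.0367). In both the ranges overlapped. With each of the 24 libraries left out in turn, Rplp1, Rpl39 and Rpl13a were called in all 24 fits, Rps3 in 20 and Rps29 in 14. The pseudogene Rps4l went the other way without passing the threshold, with 115 to 216 reads at ZT6 and ZT18 and 49 to 176 elsewhere (0.53 ± 0.19, adjusted p = 0.0516). It was called higher by DESeq2 (adjusted p = 0.0474), with deposited totals only (adjusted p = 0.0422) and with the replicate block (adjusted p = 0.0497), and its difference turned to -0.20 with the i5 index as a factor.

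**Figure D4:**
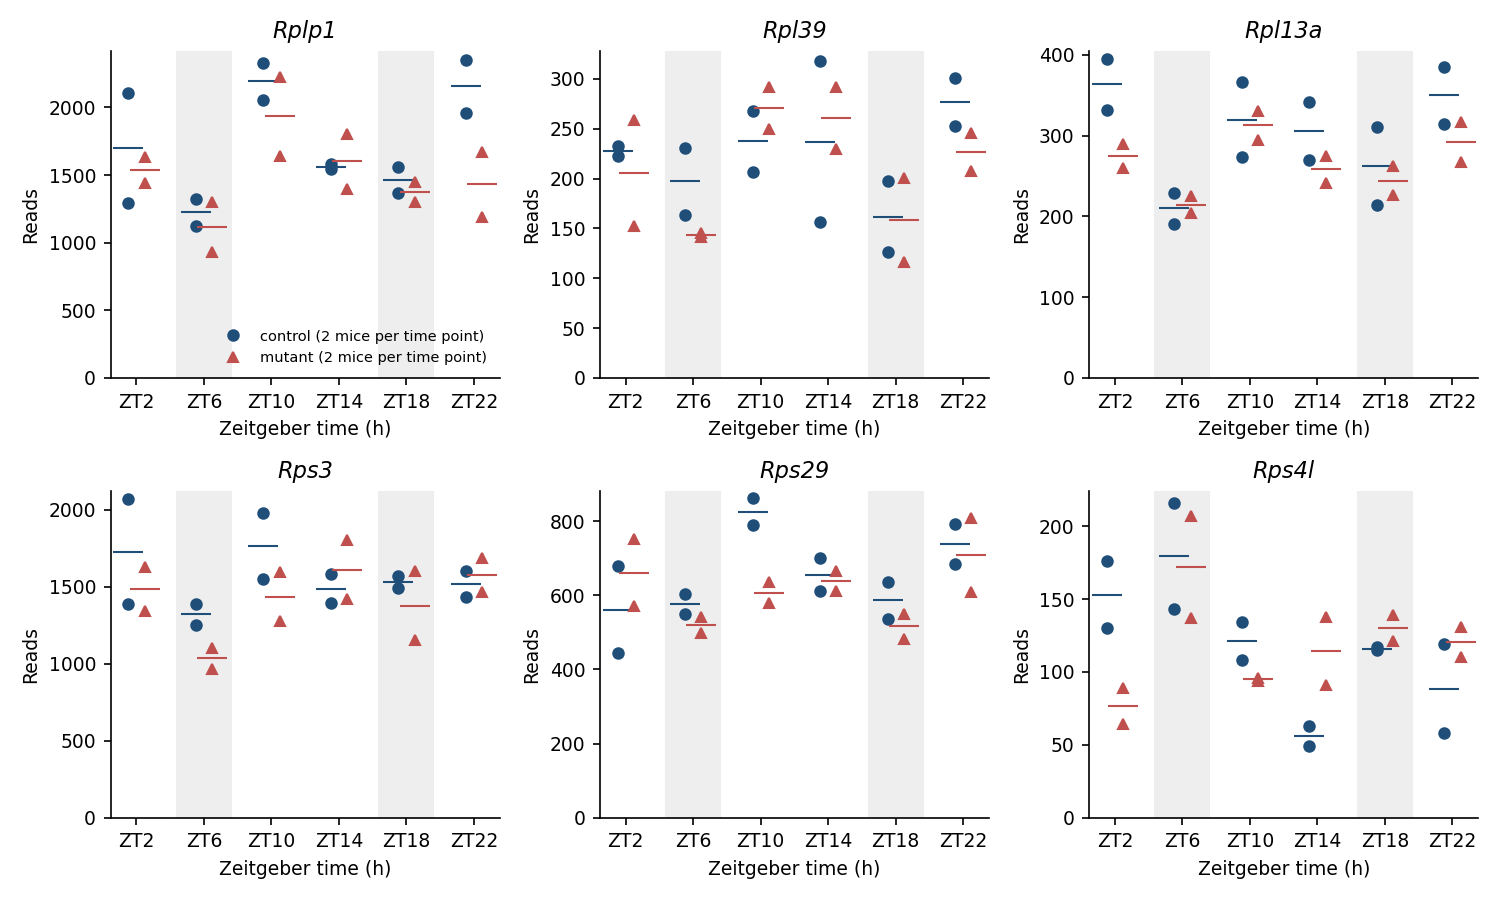
Reads per library by time point for the 5 genes called lower at ZT6 and ZT18 and for Rps4l, with controls as circles, mutants as triangles, the mean of the 2 mice as a bar and ZT6 and ZT18 shaded. Rplp1 lies between 934 and 1557 reads in the shaded libraries and between 1192 and 2348 in the others.

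Within genotypes fewer genes passed. In controls 2 genes were called lower, Rplp1 (-0.51 ± 0.14, adjusted p = 0.0171) and Rpl13a (-0.52 ± 0.16, adjusted p = 0.0403), and 0 higher, against 6.54% and 3.21% of all genes. In these controls 54 of 79 genes were below 0 (48.3% of all genes), and 5 lower and 3 higher had an unadjusted p under 0.05 (12.1% and 9.35%). With deposited totals only 41 of 79 were below 0, with a median of -0.006 against 0.089 over all genes (main fit -0.078 against 0.017). In that fit 2 were lower at that p (10.7%), and with 10 reads in every library 12 of 78 were lower (11.8%). Over all genes deposited totals only called 951 lower and 821 higher, against 1014 and 497 in the main fit. Against only the controls of ZT2 and ZT10, which share the i5 index with ZT6 and ZT18, 0 of the 79 genes were called. Of all 15493 genes, 753 were called lower and 239 higher in that fit. The differences were of similar size in Rplp1 (-0.51, adjusted p = 0.0525) and Rpl13a (-0.52, adjusted p = 0.107). In mutants 0 were called in either direction (7.25% of all genes lower, 3.40% higher), with the smallest p for Rpl39 (-0.64 ± 0.22, adjusted p = 0.0637), Rps3 (-0.32 ± 0.12, adjusted p = 0.106) and Rplp1 (-0.35 ± 0.14, adjusted p = 0.110). In mutants 57 of 79 genes were below 0 (50.8%), 6 lower and 1 higher had an unadjusted p under 0.05 (13.2% and 8.70%), and DESeq2 called 1 of the 79 genes lower, Rpl39, and 1472 of all 15493. With totals without mitochondrial genes 20 of 79 were lower at that p (15.5% of all genes).

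The difference between the genotypes in this contrast was tested directly and was called for 0 of 79 genes and 0% of all genes by edgeR. By DESeq2 it was called for 0 of the 79 genes, and by edgeR 0 had an unadjusted p under 0.05 (2.15% of all genes upward, 3.14% downward). Among the smallest p-values were those of Rpl22 (adjusted p = 0.966) and Rpl18 (adjusted p = 0.982). Beside the microglial markers, summed markers of astrocytes were 740 to 1207 CPM at ZT6 and ZT18 and 1654 to 3275 elsewhere (6 of 6 detected), those of oligodendrocytes 360 to 723 and 841 to 2714 (6 of 6), those of pericytes and smooth muscle 2399 to 3873 and 1498 to 2967 (8 of 8), and those of endothelium 16257 to 17132 and 10268 to 14682. The part of these cell types in the values of the ribosomal protein genes was not tested. With the i5 index as a factor calls were fewer over all genes too, with 505 of 15493 called lower against 1773 without it. Of the 79 genes 1 was called, Rps4x, and none of the 5, whose log2 differences were -0.38 in Rplp1 (adjusted p = 0.315), -0.39 in Rpl39 (adjusted p = 0.561), -0.43 in Rpl13a (adjusted p = 0.326), -0.37 in Rps3 (adjusted p = 0.235) and -0.25 in Rps29 (adjusted p = 0.591), while the median over the 79 genes was -0.18.

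The related lists behaved as follows in the contrast of ZT6 and ZT18 with the other time points, over both genotypes. Of 8 ribosomal protein genes outside the symbol rule and 19 translation factors 0 were called, with median log2 differences of -0.09 and 0.04. Of 32 assembly and RNA polymerase I genes 3 were called higher, a share near the 7.21% of all genes, namely Ubtf, which activates ribosomal RNA transcription, Sbds, which readies the large subunit, and Dkc1, the pseudouridine synthase of ribosomal RNA. Of 17 genes that control TOP messages 2 were called lower, a share near the 11.4% of all genes, namely Deptor and Rptor, an inhibitor and a subunit of mTOR complexes. Of 77 mitochondrial ribosomal protein genes 1 was called lower, Mrps30, with a median of 0.04 over the list.

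Rhythms of 24 h were sought with meta2d, a method that joins the p-values of JTK_CYCLE and of a Lomb-Scargle periodogram, in each genotype by itself. In controls 0 of 79 genes had a q under 0.6, the threshold at which the study counted rhythmic genes (0.310% of all genes). At an unadjusted p under 0.05 there were 0 (2.43%). A 24-h cosine tested with edgeR had 3 genes at an unadjusted p under 0.05 in controls (4.43%), Rpl14, Rpl17 and Rps24, and 0 called. The smallest p-values of meta2d were those of Rpl30, with a relative amplitude of 17.6%, Rps4l and Rps24, each with a q of 1. In mutants 0 had a q under 0.6 (0.0387%) and 1 had a p under 0.05 (2.27%), Rps6, whose q was 1. The edgeR cosine had 2 other genes at an unadjusted p under 0.05 in mutants (4.16%), Rps16 among them, and 0 called.

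The mutant mice had 1189 and 1125 reads of Rps6 (ZT2), 971 and 1070 (ZT6), 1010 and 1272 (ZT10), 1283 and 1328 (ZT14), 1363 and 1279 (ZT18), and 1183 and 1139 (ZT22). The mean of the mice was lowest at ZT6 and highest at ZT18. The fit put the peak at ZT16.9, with an amplitude of 11.3% of the mean. The control mice had 1304 and 1193 (ZT2), 1143 and 1466 (ZT6), 1326 and 1619 (ZT10), 1334 and 1078 (ZT14), 1560 and 1248 (ZT18), and 1425 and 1563 (ZT22). There most neighbouring time points overlapped, and the q was 1.

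Fitted amplitudes were small in general, with a median relative amplitude of 7.65% in controls and 8.31% in mutants, against 18.4% and 17.0% over all genes. Counting error is smaller in genes with many reads, and its part in this difference was not tested. Amplitudes and peaks were fitted to the deposited values and were not repeated on TMM-scaled values. The fitted peaks of genes that were not rhythmic by test are a description of where the values of 12 libraries were high. They fell between ZT4 and ZT8 for 27 of 79 genes in controls (34.2%, against 16.0% of all genes) and between ZT16 and ZT20 for 34 in mutants (43.0%, against 15.5%). All genes of a library share its depth, scaling and cell composition, so that the 79 peaks are not independent of each other.

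**Figure D5:**
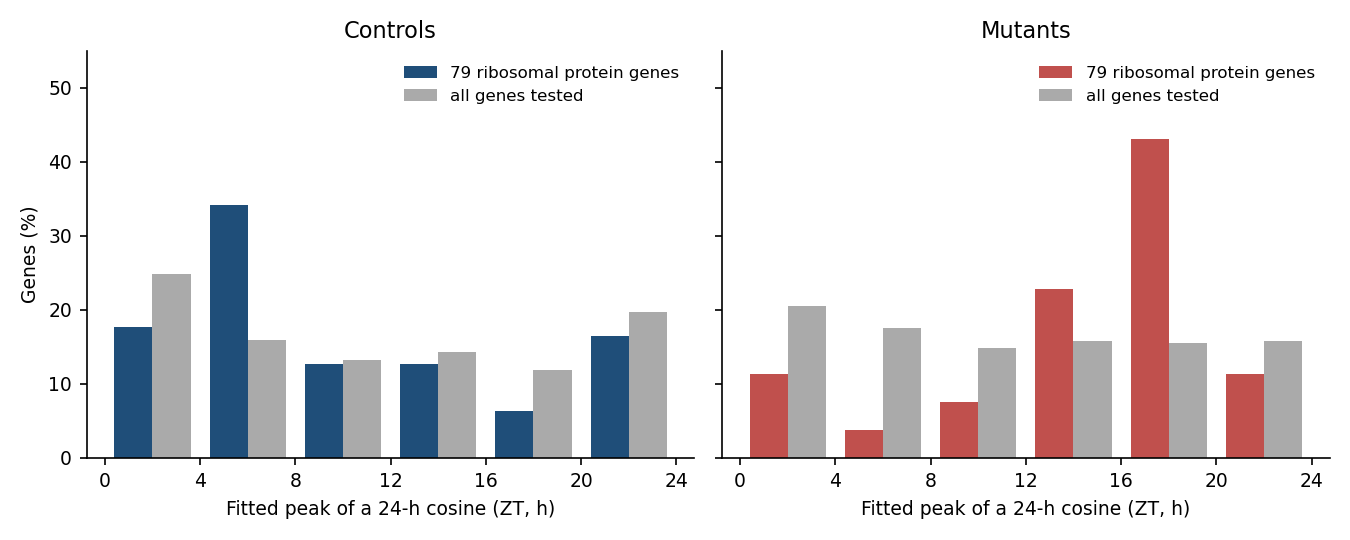
Percent of genes whose fitted 24-h cosine peaks in each 4-h bin, for the 79 ribosomal protein genes (coloured) and all 15493 genes tested (grey), in controls (left) and mutants (right). The fullest bin of the ribosomal protein genes is ZT4 to ZT8 in controls (34.2%) and ZT16 to ZT20 in mutants (43.0%); no gene passed a q of 0.6 in either genotype.

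The difference in rhythm between genotypes was tested by letting the 24-h cosine and sine terms differ between controls and mutants. By edgeR 0 of 79 genes passed an adjusted p of 0.05 (0% of all genes), and 4 had an unadjusted p under 0.05 (4.26% of all genes); DESeq2 also called 0. The 3 smallest p-values were those of Rpl17, Rps26 and Rps24, each with an adjusted p of 1.00 by edgeR, and the fourth gene was Rps27a. The count of 4 was 0 with totals without mitochondrial genes or with no filter, and 1 to 6 when single libraries were left out. Over all genes these fits had 706, 1566 of 25174 and 495 to 782, against 660 in the main fit.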

How the data were processed

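The members, gene lists and contrasts were chosen with earlier results of these data known. Per the labels and the study's methods, the authors prepared stranded total RNA libraries, aligned reads to GRCm38 with STAR 2.5.3a, merged lanes with SAMtools 1.3.1 and normalized and counted reads per gene with PORT. The deposited values are whole-number counts brought to similar totals, so libraries differ little in depth and original depth cannot set weights. How reads shared by near-identical genes were placed is not given in the sources used here. Columns were matched to samples by title.

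The quasi-likelihood test of edgeR 4.0.16 was run on the counts in R 4.3.3 (TMM, glmQLFit and glmQLFTest, 5 or more reads in 6 control or 6 mutant libraries, time point as a factor or 1 mean per genotype and time point). The fold changes come from fits over all 15493 genes, with Benjamini-Hochberg adjustment over all of them and a threshold of 0.05. The common biological coefficient of variation was 42.4%. DESeq2 1.42.0 was an alternative. meta2d (24 h) was written in Python 3.11.15 with NumPy 2.4.6 and SciPy 1.17.1, and figures were drawn with matplotlib 3.10.9. Log2 levels used counts plus 0.5 over TMM library sizes. Gene models came from a GENCODE annotation of GRCm38, start sites from RefSeq. Scripts were tested on simulated data. Intervals and limits of 3 reads cover counting error only.

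Genes named with values are, per comparison, up to 8 members past the threshold with the smallest p on each side or else the 3 smallest p, the 3 highest and lowest per kb, and members with a set role. Others (pseudogene shares, start sites, Rps4l, Rpl6l, Rpl36al, Eef1b2, Jun) were chosen after their values were seen. Some genes that the rule names are not reported here. Replicates are separate mice. Alternatives were other scalings and filters, DESeq2, a replicate block, the i5 index, subsets of time points and leaving out each library.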

Additional observations from a re-analysis of the deposited data

Results flagged for a closer look

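The share of reads on the ribosomal protein genes differed between genotypes in opposite directions at different time points, with no overlap of the 2 control and 2 mutant mice. Mutants minus controls was -0.154 percentage points at ZT2, -0.236 at ZT10 and 0.101 at ZT14. The difference between the time points was not tested. The controls of ZT2 and ZT10 carry the other i5 index than the mutants, those of ZT14 the same one. Without mitochondrially encoded genes the differences were -0.136, -0.249 and 0.0228, the groups of ZT14 overlapped, and those of ZT6, which overlapped before, did not (-0.165).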

How the results depend on the processing

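The median log2 difference of the 79 genes kept its sign for mutants against controls under 9 settings (-0.14 to -0.10). Leaving out each of 24 libraries gave -0.15 to -0.11. The sign also held at ZT6 and ZT18 over both genotypes (-0.18 to -0.04, and -0.11 to -0.06). There no filter gave -0.07, against -0.06 over all genes. The count of genes lower in mutants at an unadjusted p under 0.05 was 20 in the main fit (3.18% of all genes). It fell to 12 without control ZT6 replicate 2 (3.09%) and to 13 without mutant ZT6 replicate 1 (3.52%) or with deposited totals only (2.78%). The cause of these and the following changes was not tested. DESeq2 called 1 gene lower in mutants (Rps24, adjusted p = 0.0470) and the replicate block called 0. Over all genes DESeq2 called 40 lower and 59 higher, the replicate block 19 and 26, and the main fit 18 and 24. At ZT6 and ZT18 over both genotypes the genes called lower were 3 with deposited totals only, 9 with totals without mitochondrial genes and 1 with the i5 index as a factor (over all 15493 genes 1666, 1971 and 505, against 1773), 6 by DESeq2 (2102) or with 10 reads in every library (1035 of 9863), Rplp2 among the 9 and both 6, and 1 gene, Rps4l, was called higher with deposited totals only, by DESeq2 and with the replicate block; its difference reversed to -0.20 with the i5 index as a factor. Leaving out a library gave 3 to 5 lower (3 without control ZT18 replicate 2 or mutant ZT6 replicate 2) and 0 to 1 higher (1 without replicate 2 of control ZT2, ZT6 or ZT10 or of mutant ZT6, ZT14 or ZT22). Over all genes these fits called 1645 to 1785 lower and 965 to 1204 higher. Rps3 lost its call without control ZT18 replicate 2, either mutant of ZT6 or mutant ZT18 replicate 1, and Rps29 without control ZT6 replicate 1, either control of ZT10, control ZT14 replicate 1, ZT18 replicate 2 or ZT22 replicate 1, or mutant ZT2 replicate 1 or replicate 2 of ZT6, ZT18 or ZT22; both lost it with deposited totals only and Rps29 with no filter. The genes lower at an unadjusted p under 0.05 follow with the share of all genes. Over both genotypes they numbered 7 without control ZT10 replicate 2 (16.2%), mutant ZT6 replicate 1 (15.5%) or ZT22 replicate 2 (15.6%). In controls they numbered 3 without ZT2 replicate 1 (10.9%) or replicate 2 of ZT14 (11.2%) or ZT18 (11.6%). They were 8 without ZT2 replicate 2 (11.9%) or ZT10 replicate 1 (11.0%) and 10 without ZT18 replicate 1 (11.2%). In mutants they numbered 2 without replicate 1 of ZT6 (12.8%) or ZT18 (11.0%) and 3 without replicate 2 of ZT10 (11.7%) or ZT22 (11.6%). In controls deposited totals only called 1 lower (951 of all genes) and 1 higher (Rpl38, 821). With no filter 1 was called lower (1194 of 25174), against ZT2 and ZT10 alone 0. Leaving out a control gave 0 to 2, 0 without ZT6 replicate 1 or ZT18 replicate 2 and 1 without either of ZT2 or replicate 2 of ZT6, ZT10, ZT14 or ZT22. In mutants 2 were called lower with totals without mitochondrial genes and 1 with 10 reads in every library, by DESeq2 or with the replicate block. Over all genes 1219 of 15493, 640 of 9863, 1472 and 1109 were called lower in these fits, against 1124 in the main fit. Without a library 0 to 1 were called lower (1 without either control of ZT14 or without mutant ZT2 replicate 1, ZT6 replicate 2 or ZT18 replicate 2), and 786 to 1159 of all genes. Rhythms at an unadjusted p under 0.05 numbered 1 in controls and 2 in mutants on TMM-scaled values (402 and 337 of all genes), 3 and 2 by an edgeR cosine, 3 and 3 with the replicate block (630 and 590). Leaving out a control gave 0 to 3 (3 without ZT10 replicate 2, 2 without ZT22 replicate 1, 1 without either of ZT6, ZT10 replicate 1 or ZT14 replicate 2). Leaving out a mutant gave 0 to 5 (5 and 3 without replicates 2 and 1 of ZT10, 2 without ZT18 replicate 1, 0 without ZT6 replicate 1 or ZT14 replicate 2) and 0 to 1 with a q under 0.6 (1 without ZT6 replicate 2). Differences in rhythm at an unadjusted p under 0.05 fell from 4 to 1 without control ZT2 replicate 2, ZT10 replicate 1, ZT18 replicate 2 or ZT22 replicate 1 or mutant ZT2 or ZT22 replicate 1, and to 2 without control ZT14 replicate 1, mutant ZT14 replicate 2 or either mutant of ZT18. The median mutant share was 1.16% without mitochondrially encoded genes. The replicate numbers were not taken to pair mice, since deviations of same-numbered mice correlated above 0.1 in 1 of 66 pairs of groups; the replicate block changed no other call. The reads limit Rpl6l and Rps27l most.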
